A study of Mus musculus with 16 samples.

Results

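The sarcomere and Z-disc genes described here are 39 genes chosen by symbol, those of the contractile filaments of the heart muscle cell, of the discs that anchor them and of the factors that build them. The platform annotation gave 34 of the 39 a probe set with a single gene symbol, out of 17097 genes measured in the series. Myh6, Neb and Myom2 had no such probe set, and Myh7b and Unc45b appeared only on probe sets that carry several symbols, so these 5 members have no value here. Each measured gene was represented by its probe set with the highest mean over the 16 arrays, and 14 of the 34 members had several probe sets, 62 in all.

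Cardiomyocytes were prepared from the ventricles of 16 mice, with 1 array per mouse and 4 mice in each of 4 groups, namely GPER-knockout (GPER KO) females, intact females, GPER KO males and intact males. GPER is the G protein-coupled estrogen receptor. The labels call the intact mice wild type and give an age of 15 weeks for every group, while the study's methods give an older age. The study describes the deletion as specific to cardiomyocytes, while the promoter that drove it, and whether the intact mice carried that driver too, are not given in the sources used here. The deletion and its driver cannot be told apart in any comparison that follows. The cells were freed with collagenase, strained and spun at low speed without a sort, and nothing beyond the labels says how the mice were related, so p-values measure the spread between these mice.

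The sarcomere is the unit of contraction of striated muscle. Thick filaments of myosin pull on thin filaments of actin, tropomyosin and troponin, titin spans the unit as a spring, and Z-discs tie neighbouring units together and to the desmin network of the cell. The mouse ventricle replaces fetal isoforms with adult ones after birth (beta by alpha myosin heavy chain, skeletal and smooth muscle by cardiac actin, slow skeletal by cardiac troponin I), and higher transcript of beta myosin heavy chain and of skeletal actin in the adult heart is a known mark of cardiac stress.

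Of the 34 measured sarcomere and Z-disc genes 18 differed by under 0.1 on the log2 scale between GPER KO and intact cardiomyocytes in females and 17 in males, shares of 52.9% and 50% against 63.9% and 67.7% of all genes. The median size of a difference, sign aside, was 0.0902 in females and 0.0982 in males, against 0.0708 and 0.0638 over all genes. The largest differences were those of the dimmer probe set of Myh7, the beta myosin heavy chain. It was at 6.88-fold the intact level in female and 7.26-fold in male GPER KO cells. The brighter probe set, which stands for Myh7 among the 34, differed by only -0.01 in females and -0.05 in males. Acta1, the skeletal muscle actin, followed at 2.28-fold in females and 1.76-fold in males. Next in size, and like Acta1 not called, were Nebl at 1.71-fold in females, Acta2 at 1.51-fold in males and Nexn at 1.41-fold in females. Des, the intermediate filament protein desmin, was higher by 1.19-fold on average over both sexes. Values are log2 values after robust multi-array average (RMA). A difference is the GPER KO mean less the intact mean where no other direction stands beside it, and a gene is called where limma's adjusted p (Benjamini-Hochberg over all genes tested) is under 0.05.

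**Figure D1:**
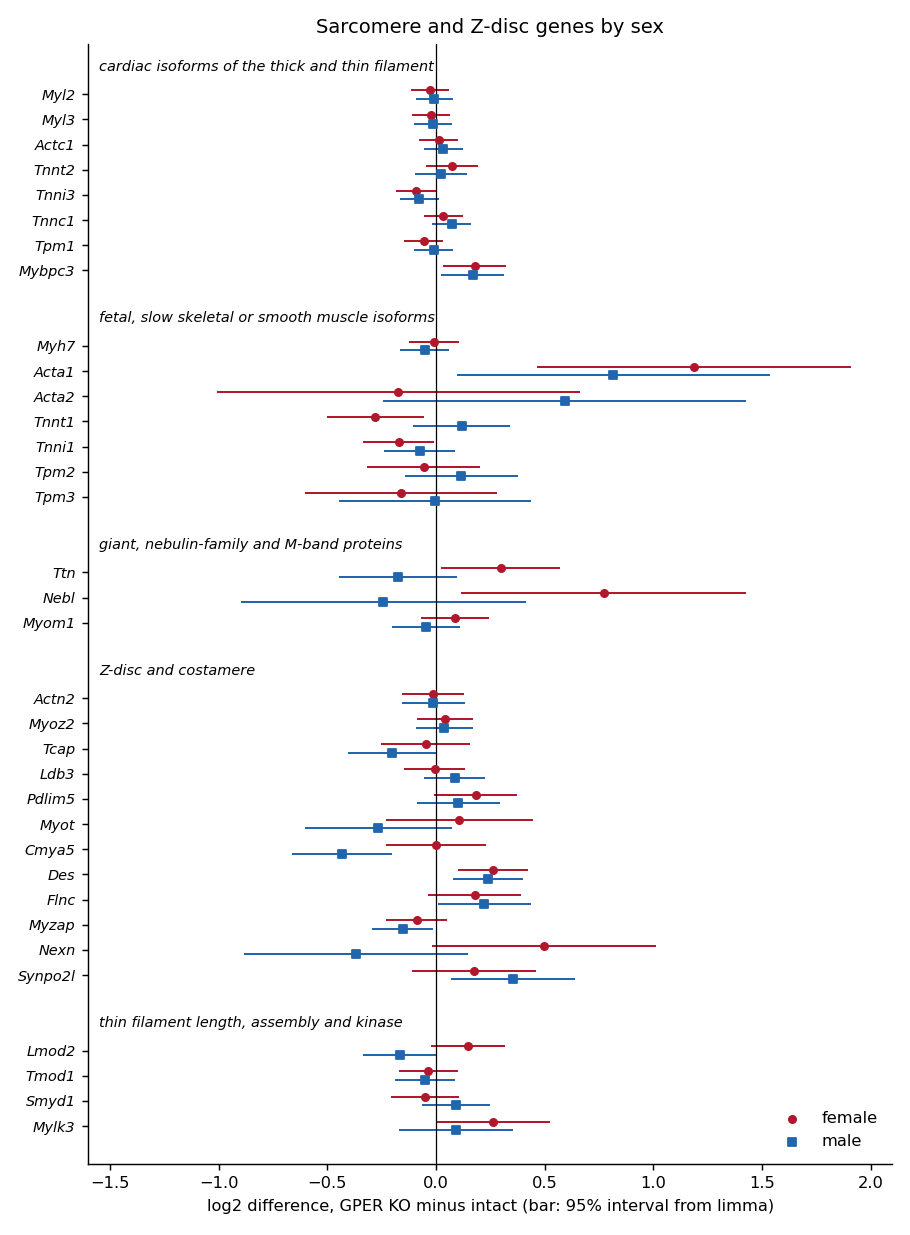
Log2 difference between GPER KO and intact cardiomyocytes (x axis) for the 34 measured genes in rows, grouped by role, with females as circles and males as squares and bars for limma's 95% interval. Acta1 lies farthest to the right in both sexes (1.19 in females, 0.82 in males), and 18 of the 34 genes in females and 17 in males lie within 0.1 of 0.

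In females 0 of the 34 members were called, where limma called 0.281% of all genes, and in males 0 members were called against 0.62% of all genes. At an unadjusted p under 0.05 the members numbered 8 in females (12.6% of all genes) and 7 in males (10.1% of all genes). For the average of both sexes 1 member, Des, was called (1.36% of all genes), with 10 at an unadjusted p under 0.05 (11.7% of all genes). The median difference over the members was 0.01 in females and -0.01 in males, against -0.02 and 0.01 over all genes. Of the 34 members 18 were above 0 and 16 below in females, with 16 above and 18 below in males.

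The arrays themselves showed little spread, with medians of 3.47 to 3.51 and correlations of 0.982 to 0.997 between pairs. The deleted gene, Gper1, read 2.66 to 2.97 in female GPER KO and 2.76 to 3.11 in female intact cells, and in males 2.72 to 2.86 in GPER KO and 2.64 to 2.93 in intact cells, a low signal that does not separate the genotypes and, if its probes lie outside the deleted part, checks nothing. The mean of 13 other cardiomyocyte markers was 10.90 to 10.96 in female GPER KO against 10.93 to 10.98 in female intact, and 10.89 to 10.97 in male GPER KO against 11.00 to 11.04 in male intact preparations, so that all male GPER KO arrays lay below all male intact ones. The mean of 16 macrophage markers was 4.73 to 4.98 in female GPER KO against 4.44 to 4.62 in female intact, and 4.91 to 5.62 in male GPER KO against 4.53 to 5.03 in male intact preparations, with 6 markers called in males. The mean of 12 endothelial markers was 5.75 to 6.24 in female GPER KO against 6.02 to 6.60 in female intact and 5.83 to 6.44 in male GPER KO against 6.02 to 6.78 in male intact preparations, with 0 called. Of 12 fibroblast markers 1 was called, lower in GPER KO on average over both sexes, while 8 of the 12 were above 0 and 4 below. The mean of the 12 was 5.16 in GPER KO against 4.99 in intact females, and 5.28 against 5.15 in males. Of 6 atrial markers 1 was called, higher in GPER KO in each sex. In females 1 of the 6 was above 0 and 5 below, and in males 4 were above and 2 below. The mean of the 6 was 6.43 in GPER KO against 6.72 in intact females, and 7.2 against 6.47 in males. Of 4 red blood cell markers 0 were called. In such mixed RNA, fewer cells of a type and less RNA per cell cannot be told apart, and the part of these shifts in the sarcomere results was not tested.

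The cardiac isoforms of the thick and thin filament were among the brightest probe sets of the array. Of the 34 members, 28 lay above the percentile 95 of all probe sets. Actc1 (cardiac actin), Myl2 and Myl3 (ventricular myosin light chains), Tnnt2, Tnni3 and Tnnc1 (the cardiac troponins T, I and C) and Tpm1 (the main cardiac tropomyosin) averaged 12.13 to 12.96 over the 16 arrays, where the highest value of any probe set on any array was 13.02. The SD within a group was 0.01 to 0.09 for these 7 genes.

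Their differences were small. Whether readings so near the top of the scale hold back larger ones was not tested. Tnni3, the inhibitory subunit of the cardiac troponin complex, read 12.44, 12.44, 12.43 and 12.49 in female GPER KO, against 12.54, 12.52, 12.61 and 12.49 in female intact cells. In males Tnni3 read 12.39, 12.41, 12.35 and 12.40 in GPER KO, against 12.48, 12.47, 12.45 and 12.47 in intact cells. All 4 GPER KO values lay at or below the lowest intact value in females (equal to it after rounding in 1 mouse) and below it in males, yet the differences of -0.09 in females and -0.08 in males (limma, adjusted p = 0.39 for females, 0.6 for males) did not pass the test. The other 6 differed by -0.06 to 0.07 in both sexes on the brightest probe set of each. Further probe sets of Myl3, Tnnt2 and Tpm1 are not part of that range.

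Mybpc3, cardiac myosin binding protein C, which sits on the thick filament and tunes the rate of cross-bridge cycling, had the largest difference among the 8 measured adult cardiac isoforms in both sexes. It read 11.57, 11.36, 11.47 and 11.41 in female GPER KO, against 11.18, 11.25, 11.29 and 11.35 in female intact cells. In males Mybpc3 read 11.51, 11.59, 11.39 and 11.70 in GPER KO, against 11.43, 11.44, 11.35 and 11.30 in intact cells. The female groups did not overlap, and in males 1 GPER KO mouse lay within the intact range. The differences were 0.18 in females (95% interval 0.03 to 0.32, adjusted p = 0.304, limma) and 0.17 in males (95% interval 0.02 to 0.31, adjusted p = 0.384).

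Across the whole list, 4 members had female groups without overlap. Acta1, Des and Mybpc3 were higher in GPER KO, a pattern that 1.95% of all genes showed, and Tnni3 was lower, as were 3.73% of all genes. In males Synpo2l was higher (4.24% of all genes), and Cmya5 and Tnni3 were lower (1.97% of all genes).

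Myh7 encodes the beta, or slow, myosin heavy chain, which the fetal mouse ventricle uses and the adult ventricle largely replaces with the alpha chain of Myh6. It has 2 probe sets on this array and they gave different answers. The brighter one, 1448554_PM_s_at, which stands for the gene by the rule above, averaged 12.57 in female GPER KO and 12.58 in female intact cells, and 12.48 in male GPER KO and 12.53 in male intact cells. Its differences were -0.01 in females (95% interval -0.12 to 0.10) and -0.05 in males (95% interval -0.17 to 0.06).

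The other, 1448553_PM_at, read 10.05, 10.12, 10.17 and 10.14 in female GPER KO, against 6.98, 6.77, 7.63 and 7.97 in female intact cells. In males 1448553_PM_at read 9.68, 9.96, 10.09 and 10.56 in GPER KO, against 7.01, 7.70, 7.73 and 6.42 in intact cells. Every GPER KO array lay above 9.6 and every intact array below 8, with no overlap in either sex. The SD within female groups was 0.05 in GPER KO and 0.56 in intact cells, and within male groups 0.37 in GPER KO and 0.63 in intact cells.

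In a fit over all 28898 probe sets with 1 symbol, 1448553_PM_at was higher in GPER KO by 2.78 in females (standard error 0.28, 95% interval 2.18 to 3.38, adjusted p = 0.000254, limma), where 0.18% of probe sets were called. In males it was higher by 2.86 (95% interval 2.26 to 3.46, adjusted p = 0.000177), where 0.446% were called. The male minus female difference of these was 0.08 (95% interval -0.77 to 0.93, adjusted p = 0.963), and intact males and females differed by -0.12 (male minus female, adjusted p = 0.87). With each array left out in turn the difference stayed between 2.59 and 2.99 in females and between 2.59 and 3.03 in males, called each time. This probe set was singled out after its values were seen.

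The ending _s_at marks, on this platform, a probe set whose probes are shared by several transcripts. The alpha and beta myosin heavy chains are close in sequence and no probe set here carries the symbol Myh6 alone, so the bright signal near the top of the scale cannot be assigned to Myh7 alone. Which transcript the probes of either set bind was not tested. The sources used here also do not say whether the construct that drove the deletion carries myosin heavy chain sequence, so on either probe set signal from such a construct and signal from the Myh7 gene cannot be told apart.

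**Figure D2:**
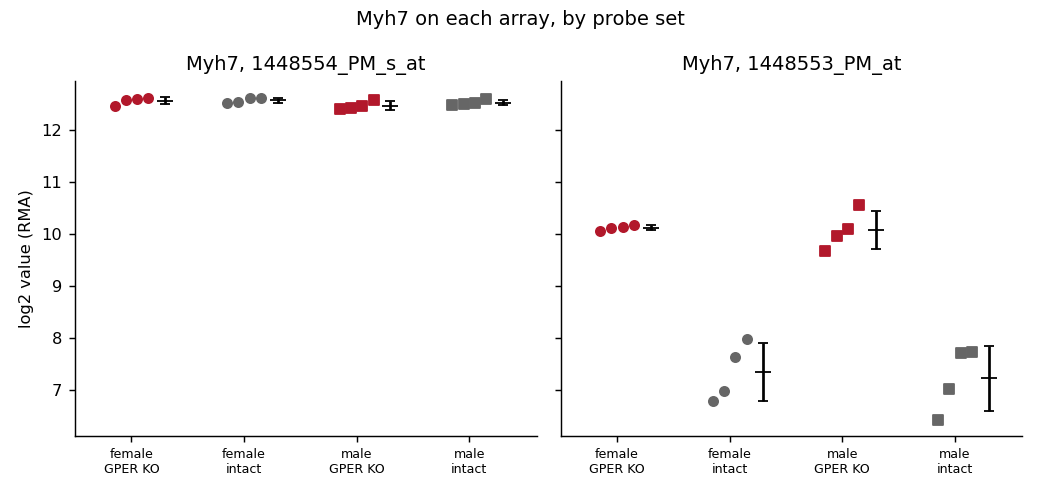
Log2 values of the 2 Myh7 probe sets on each of the 16 arrays, with the arrays of a group sorted by value and the group mean and SD as bars beside the points. On 1448554_PM_s_at the 4 groups lie together between 12.42 and 12.63, and on 1448553_PM_at all GPER KO arrays lie between 9.68 and 10.56 and all intact arrays between 6.42 and 7.97.

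Acta1 encodes skeletal muscle actin, expressed in the fetal and the stressed heart. It read 10.13, 10.08, 10.92 and 10.45 in female GPER KO, against 8.17, 9.47, 10.05 and 9.15 in female intact cells. In males Acta1 read 10.78, 11.20, 11.14 and 11.82 in GPER KO, against 9.94, 10.02, 10.97 and 10.74 in intact cells. All female GPER KO arrays were above all female intact ones, 1 of them by 0.03 only, while in males 1 GPER KO array lay within the intact range.

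The Acta1 difference was 1.19 in females (95% interval 0.47 to 1.91, adjusted p = 0.188, limma) and 0.82 in males (95% interval 0.09 to 1.54, adjusted p = 0.406). Averaged over both sexes it was 1.0 (standard error 0.24, 95% interval 0.49 to 1.51) with an adjusted p of 0.052, just outside the threshold. Among intact mice Acta1 was 1.21 above the female level in males (adjusted p = 0.097). Female intact 418 had the lowest value of all 16 arrays, and without it the female difference was 0.84.

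Acta1 was also set against Actc1 on the same array. As Actc1 lay near the top of the scale and hardly varied (differences of 0.01 in females and 0.03 in males), this largely restates Acta1 itself, which limma did not call, and does not show that the isoforms moved apart. The log2 difference Acta1 minus Actc1 averaged -2.53 ± 0.37 in female GPER KO and -3.70 ± 0.79 in female intact cells, and -1.72 ± 0.46 in male GPER KO and -2.50 ± 0.51 in male intact cells (SD, n = 4 each). GPER KO exceeded intact by 1.17 in females (two-sided exact permutation test, p = 0.0286, the smallest that 4 against 4 arrays can give, adjusted p = 0.171 over 12 tests) and by 0.78 in males (exact p = 0.0571, adjusted p = 0.229). Over both sexes, with genotype permuted within each sex, the difference was 0.98 (exact permutation p = 0.00163, adjusted p = 0.0098 over the 6 pairs that could be formed).

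**Figure D3:**
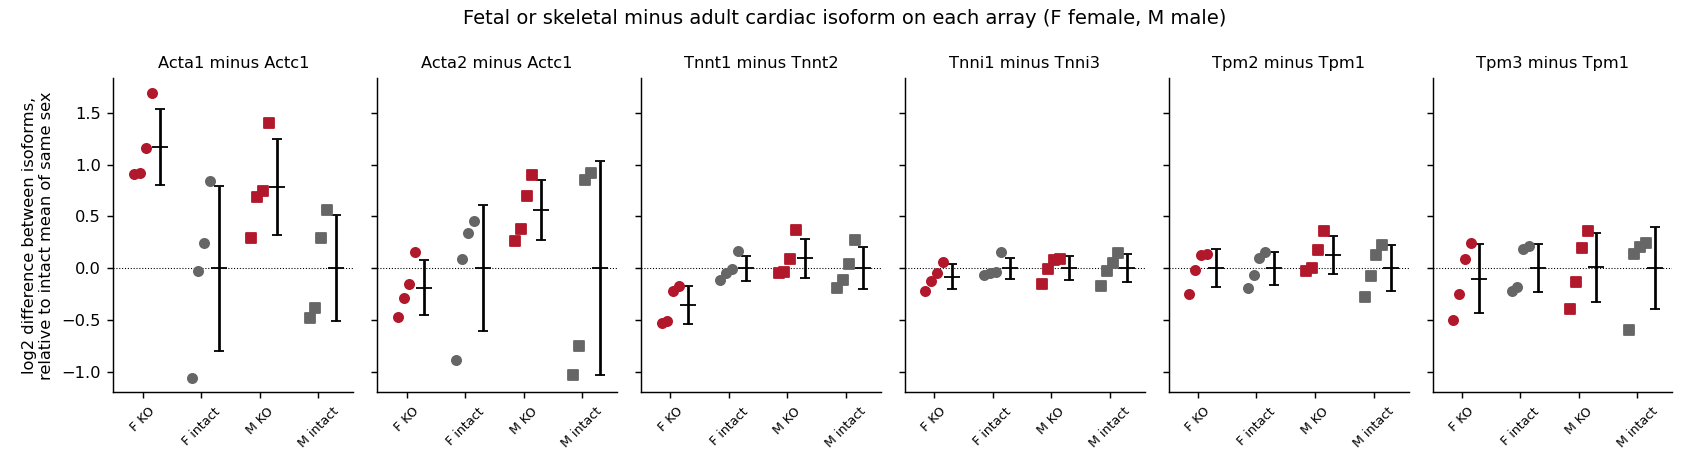
Log2 difference between a fetal, skeletal or smooth muscle isoform and its adult cardiac counterpart on each array (y axis), set relative to the intact mean of the same sex, with 1 panel for each of 6 pairs and bars for the group mean and SD. Only the panel of Acta1 minus Actc1 shows GPER KO means above the intact means in both sexes by more than 0.7.

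The promoters of Acta1, Actc1 and Myh7 are shown because Acta1 and Myh7 had the largest differences, Myh7 on 1 of its probe sets, and Actc1 is the cardiac counterpart of Acta1. Sequences are the 250 bases before a RefSeq start site on GRCm38.p6, all on the minus strand, written 5′ to 3′ in the direction of transcription. Acta1 lies at chr8:123894776-123895025, Actc1 at chr2:114052876-114053125 and Myh7, at the first of 2 start sites, at chr14:54994627-54994876. Capitals mark matches to the CArG box bound by serum response factor, to the MCAT element (CATTCC) bound by TEAD factors and to TATAAA, searched on both strands.

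Acta1: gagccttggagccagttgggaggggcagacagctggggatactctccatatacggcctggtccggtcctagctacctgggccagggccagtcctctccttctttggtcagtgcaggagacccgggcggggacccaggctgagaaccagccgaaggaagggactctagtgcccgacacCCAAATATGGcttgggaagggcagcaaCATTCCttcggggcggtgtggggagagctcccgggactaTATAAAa

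Actc1: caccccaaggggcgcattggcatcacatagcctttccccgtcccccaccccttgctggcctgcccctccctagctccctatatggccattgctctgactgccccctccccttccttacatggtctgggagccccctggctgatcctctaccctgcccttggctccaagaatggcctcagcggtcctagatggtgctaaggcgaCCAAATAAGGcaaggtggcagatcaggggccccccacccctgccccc

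Myh7: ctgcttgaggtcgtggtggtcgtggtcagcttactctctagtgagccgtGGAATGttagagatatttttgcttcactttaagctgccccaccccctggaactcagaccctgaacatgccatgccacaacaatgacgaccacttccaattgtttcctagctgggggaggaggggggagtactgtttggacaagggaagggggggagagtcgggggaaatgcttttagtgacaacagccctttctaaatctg

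Acta1 holds a CArG box from -73 to -64, an MCAT element from -46 to -41 and TATAAA from -7 to -2, Actc1 holds a CArG box from -47 to -38, and Myh7 holds an MCAT element on the other strand from -201 to -196, with positions counted back from the start site. None of these matches overlaps another. The promoter of Des and that of the other Myh7 start site were searched too, held no match and are not shown. The table of promoters held 34 of the 39 members, with 47 start sites, and Myot, Neb, Myom2, Nexn and Tcap were not matched. A CArG box was found at 7 of the 47 (14.9%, against 1.47% of all 32851 promoters in the table), of which 2 belong to Ldb3. An MCAT element was found at 12 (25.5%, against 12.6%) and TATAAA at 5 (10.6%, against 12.4%). Stretches before start sites of 1 gene can overlap, as those of Myh7 do, so 1 match can be counted more than once. These counts describe letters and not binding.

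None of the remaining fetal, slow skeletal and smooth muscle isoforms was called by limma in either sex. Tnnt1, slow skeletal troponin T, read 5.36, 5.4, 5.77 and 5.65 in female GPER KO, against 5.83, 5.97, 5.67 and 5.82 in female intact cells. In males Tnnt1 read 5.88, 5.56, 5.54 and 5.55 in GPER KO, against 5.39, 5.58, 5.39 and 5.69 in intact cells. The ranges overlapped in both sexes, with differences of -0.28 in females and 0.12 in males (limma, adjusted p = 0.29 for females, 0.781 for males). Within arrays, Tnnt1 minus Tnnt2 differed by -0.35 in females (exact permutation p = 0.0286, adjusted p = 0.171) and by 0.10 in males (exact p = 0.514), neither past the threshold.

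Tnni1, slow skeletal troponin I, the fetal counterpart of Tnni3, was at 3.34 to 3.6 on GPER KO arrays and 3.38 to 3.75 on intact arrays, close to the array median. It differed by -0.17 in females and by -0.08 in males (adjusted p = 0.372 for females, 0.823 for males). Tpm2 and Tpm3, tropomyosins of skeletal and other tissues, differed by -0.06 and -0.16 in females and by 0.12 and -0.01 in males, with adjusted p of 0.801 or more.

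Acta2, smooth muscle actin, had the highest SD within a group of all measured members. It read 9.20, 9.36, 9.86 and 9.59 in female GPER KO, against 10.15, 9.78, 10.01 and 8.76 in female intact cells, and the ranges overlapped. In males Acta2 read 9.17, 9.66, 9.45 and 8.99 in GPER KO, against 7.97, 7.69, 9.57 and 9.67 in intact cells. The male intact arrays fell into a low pair and a high pair, with an SD of 1.04 and a male difference of 0.59 (adjusted p = 0.685, limma), against -0.17 in females (adjusted p = 0.895). Of the 6 measured smooth muscle and pericyte markers, Rgs5 averaged 8.54 in female GPER KO and 8.18 in female intact cells, and 8.43 in male GPER KO and 9.21 in male intact cells. Kcnj8 averaged 5.55 to 5.66 in GPER KO and 5.97 to 6.19 in intact groups, Notch3 5.02 to 5.23 in GPER KO and 5.20 to 5.38 in intact groups, and Pdgfrb 4.12 to 4.13 in GPER KO and 4.34 to 4.45 in intact groups. Myh11 (2.81 to 3.20 on GPER KO and 2.87 to 3.24 on intact arrays) and Cnn1 (2.95 to 3.29 on GPER KO and 2.87 to 3.29 on intact arrays) lay below the array median. The mean of the 6 was 4.56 to 5.26 on GPER KO and 4.68 to 5.4 on intact arrays, 0 of them were called, and their part in the Acta2 values was not tested.

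**Figure D4:**
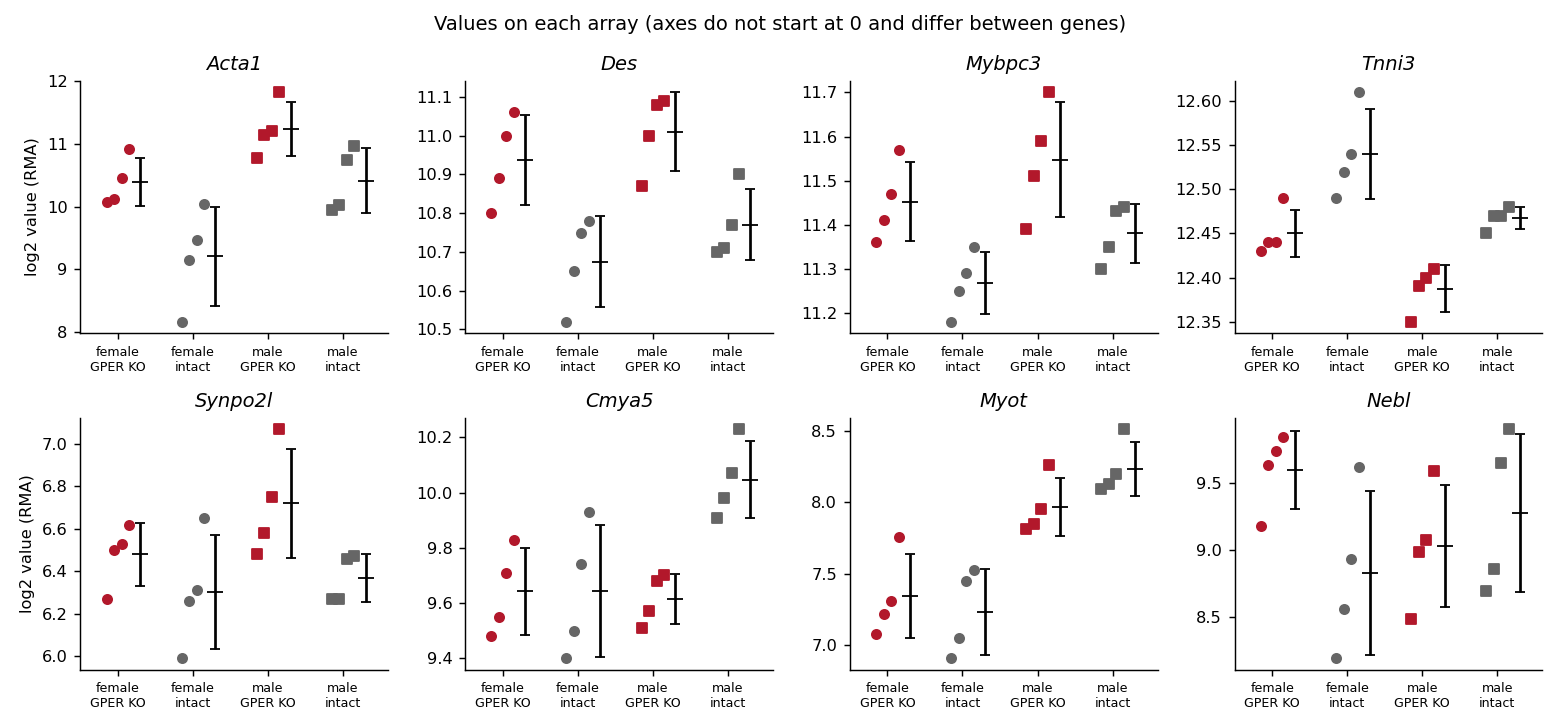
Log2 values of 8 of the genes on each array, sorted within each group, with the group mean and SD as bars. The axes differ between genes and do not start at 0. Acta1, Des and Mybpc3 lie higher in GPER KO in both sexes, Cmya5 lies lower in male GPER KO, and Myot lies higher in males of either genotype.

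Nebl, nebulette, the short cardiac relative of nebulin that links thin filaments to the Z-disc, read 9.74, 9.63, 9.18 and 9.84 in female GPER KO, against 8.93, 8.56, 8.19 and 9.62 in female intact cells. In males Nebl read 9.07, 8.98, 9.59 and 8.48 in GPER KO, against 9.90, 9.65, 8.69 and 8.86 in intact cells. Both ranges overlapped. Nebl differed by 0.77 in females (95% interval 0.12 to 1.43, adjusted p = 0.324, limma) and by -0.24 in males (95% interval -0.90 to 0.41, adjusted p = 0.87). The other, dimmer Nebl probe set averaged 6.80 in female GPER KO and 6.19 in female intact cells. In males it averaged 6.01 in GPER KO and 5.95 in intact cells, so it did not share the male direction.

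Ttn, titin, read 11.95, 11.46, 11.69 and 11.86 in female GPER KO, against 11.68, 11.16, 11.40 and 11.54 in female intact cells. In males Ttn read 11.47, 11.66, 11.69 and 11.61 in GPER KO, against 12.11, 11.76, 11.74 and 11.54 in intact cells. The Ttn difference was 0.30 in females and -0.18 in males (adjusted p = 0.355 for females, 0.726 for males), and the other 2 Ttn probe sets gave 0.36 and 0.39 in females. Myom1, myomesin of the M-band, which crosslinks the thick filaments, differed by 0.09 in females and -0.05 in males.

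Nexn, nexilin, an actin binding protein of the Z-disc, was likewise above 0 in females and below 0 in males, not called in either. It read 9.86, 9.75, 9.40 and 10.00 in female GPER KO, against 9.14, 9.16, 8.87 and 9.86 in female intact cells, a difference of 0.50 (adjusted p = 0.413). In males it differed by -0.37 (adjusted p = 0.682). The male minus female difference of the genotype effect was -1.01 for Nebl, -0.86 for Nexn and -0.47 for Ttn, with adjusted p of 0.426 to 0.427, and limma called 0 of 34 members and 0% of all genes in that comparison (6 members at an unadjusted p under 0.05, against 11% of all genes). Nebl and Nexn were lowest among the female intact mice in 422, and the female differences without intact 421 and 422 were 0.32 for Nebl, 0.25 for Nexn and 0.13 for Ttn.

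Of the 12 genes of the Z-disc and costamere 7 were above 0 and 5 below in the average of both sexes, and Des was the called one. Des encodes desmin, the intermediate filament that wraps the Z-discs. It read 10.89, 10.80, 11.06 and 11.00 in female GPER KO, against 10.52, 10.65, 10.78 and 10.75 in female intact cells. In males Des read 10.87, 11.08, 11.00 and 11.09 in GPER KO, against 10.77, 10.90, 10.71 and 10.70 in intact cells. The female groups did not overlap, and in males 1 GPER KO array lay below the highest intact one.

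The Des difference was 0.26 in females and 0.24 in males (limma, adjusted p = 0.188 for females, 0.219 for males), and 0.25 on average (standard error 0.05, 95% interval 0.14 to 0.36, adjusted p = 0.0253). The sexes differed by -0.02 (male minus female, 95% interval -0.25 to 0.20). The call is close to the threshold: with 1 array left out the adjusted p ran from 0.0179 to 0.064. Des was no longer called without female GPER KO 426 or 427, female intact 418 or 421, male GPER KO 432, or male intact 452 or 453. Averaging Des over its 2 probe sets gave 0.14 (adjusted p = 0.217), the other of which has a mean of 4.22.

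Cmya5, myospryn, a desmin binding protein of the costamere, read 9.57, 9.70, 9.68 and 9.51 in male GPER KO, against 10.23, 10.07, 9.91 and 9.98 in male intact cells. In females Cmya5 read 9.71, 9.48, 9.55 and 9.83 in GPER KO, against 9.74, 9.40, 9.5 and 9.93 in intact cells. The male groups did not overlap and the female ones did. Cmya5 differed by -0.43 in males (95% interval -0.66 to -0.20, adjusted p = 0.0997, limma) and by 0.00 in females (95% interval -0.23 to 0.23), and the difference of these was -0.43 (adjusted p = 0.426). Without female intact 425, which enters the shared spread only, the male adjusted p was 0.0475.

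Synpo2l, an actin binding protein of the Z-disc, read 6.58, 6.48, 6.75 and 7.07 in male GPER KO, against 6.47, 6.27, 6.27 and 6.46 in male intact cells, a gap of 0.01 between the groups. It differed by 0.36 in males (adjusted p = 0.333, limma) and by 0.18 in females (adjusted p = 0.628). Flnc, filamin C, a crosslinker of actin at the Z-disc, differed by 0.18 in females and 0.22 in males (adjusted p = 0.487 for females, 0.462 for males). Tcap, telethonin, which caps titin at the Z-disc, and Myzap, a protein of the intercalated disc, were on the other side of 0, with Tcap at -0.05 in females and -0.20 in males and Myzap at -0.09 in females and -0.15 in males (adjusted p of 0.434 or more).

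Actn2 (alpha-actinin, the main crosslinker of the Z-disc), Myoz2 (a calcineurin binding partner of alpha-actinin), Ldb3 and Pdlim5 (PDZ and LIM domain proteins of the Z-disc) differed by -0.01 to 0.18 in females and -0.01 to 0.10 in males. For Ldb3 that is the value of its brightest probe set, and the other 2 gave larger ones in females. Ldb3 1433783_PM_at read 10.48, 10.32, 10.35 and 10.38 in female GPER KO, against 10.26, 10.14, 10.06 and 10.22 in female intact cells. The female groups did not overlap on it, with a difference of 0.21 in females (adjusted p = 0.186, limma) and 0.09 in males, and Ldb3 1451999_PM_at gave 0.19 in females (adjusted p = 0.54) and 0.02 in males. Of the 5 Pdlim5 probe sets, a dim one, 1450786_PM_x_at, was called in the fit over every probe set for the average of both sexes (1.04% of probe sets called). It averaged 3.6 in female GPER KO and 3.26 in female intact cells, and 3.56 in male GPER KO and 3.34 in male intact cells, a difference of 0.28 (adjusted p = 0.0443, limma) close to the array median. Des 1426731_PM_at and Myh7 1448553_PM_at were the other calls among the 62 probe sets there.

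**Figure D5:**
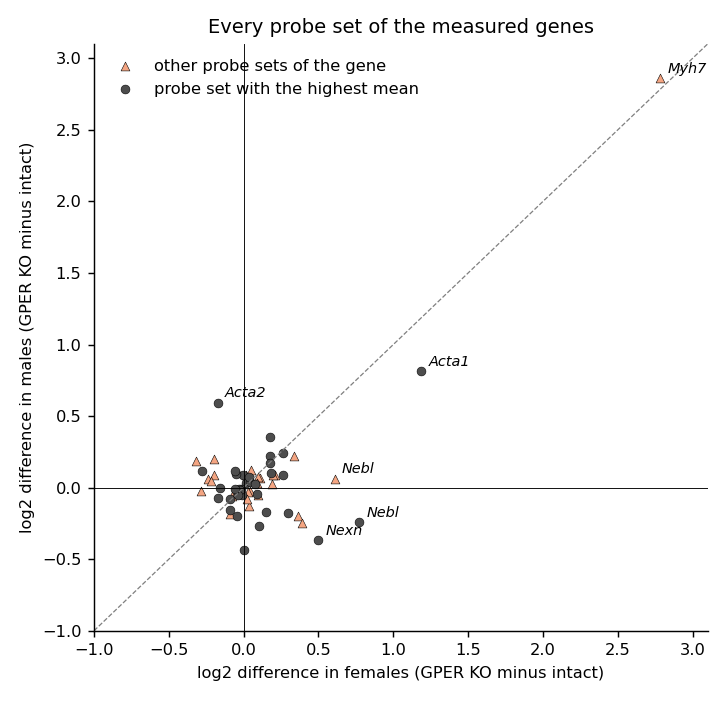
Log2 difference between GPER KO and intact cells in females (x axis) and males (y axis) for each of the 62 probe sets of the 34 measured genes, with circles for the probe set of highest mean and triangles for the others. The Myh7 triangle at 2.78 and 2.86 lies apart from all other points, and Acta1 follows at 1.19 and 0.82.

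The 4 genes of filament length, assembly and phosphorylation had no call. Lmod2, leiomodin, which lengthens thin filaments, differed by 0.15 in females and -0.17 in males (adjusted p = 0.459 for females, 0.506 for males), and the male minus female difference was -0.32 (adjusted p = 0.426). Tmod1, tropomodulin, which caps the pointed end, Smyd1, a methyltransferase needed for myosin assembly, and Mylk3, the cardiac myosin light chain kinase, differed by -0.05 to 0.26 in females and -0.05 to 0.09 in males.

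Between intact males and females 1 of 34 members, Myot, was called (0.579% of all genes), with 9 at an unadjusted p under 0.05 (17.5% of all genes). Myot encodes myotilin, an actin binding protein of the Z-disc. It read 8.09, 8.13, 8.20 and 8.51 in male intact, against 7.05, 6.91, 7.53 and 7.45 in female intact cells, and 7.81, 7.85, 7.95 and 8.26 in male GPER KO, against 7.08, 7.22, 7.76 and 7.31 in female GPER KO cells. Males lay above females without overlap in both genotypes, and 3.05% of all genes had intact males above intact females in this way. The male minus female difference in intact mice was 1.0 (standard error 0.16, 95% interval 0.66 to 1.34, adjusted p = 0.0131, limma), and without female intact 421 it was 0.89 (adjusted p = 0.0514). The genotype difference of Myot was 0.11 in females and -0.27 in males, neither past the threshold.

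Of other muscle genes on lists written for this comparison, Ankrd1, a titin binding stress protein of the Z-disc and nucleus, and Klhl40, which stabilizes leiomodin and nebulin in skeletal muscle, were higher in GPER KO. Ankrd1 averaged 11.76 ± 0.25 in female GPER KO and 10.61 ± 0.15 in female intact cells, and 11.89 ± 0.05 in male GPER KO and 11.17 ± 0.26 in male intact cells (SD, n = 4 each). Klhl40 averaged 7.34 ± 0.20 in male GPER KO and 6.76 ± 0.07 in male intact cells (adjusted p = 0.0287, limma), and was 0.31 higher in female GPER KO, short of the threshold (adjusted p = 0.275). They were the calls among 37 other Z-disc, M-band and anchoring genes, where 0.281% of all genes were called in females and 0.62% in males. Of the 37, 5 in females and 7 in males had an unadjusted p under 0.05, against 12.6% and 10.1% of all genes.

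Among 26 other thick and thin filament genes limma called 0 in either sex, against 0.281% of all genes in females and 0.62% in males. Of the 26, 1 in females and 3 in males had an unadjusted p under 0.05 (12.6% and 10.1% of all genes). The lowest p-values of the 26 were those of Lmod3, 0.35 higher in female GPER KO (adjusted p = 0.224), and Mylk4, -0.49 in males (adjusted p = 0.326). Some varied widely between mice of 1 group. Myl1, a myosin light chain of fast skeletal muscle, was at 6.70 to 8.98 in female GPER KO against 7.20 to 9.70 in female intact cells, and 7.78 to 8.71 in male GPER KO against 7.43 to 10.05 in male intact cells. The atrial light chains Myl4 and Myl7 were at 6.15 to 8.78 and 6.10 to 9.33 in female GPER KO against 7.22 to 9.24 and 7.31 to 9.57 in female intact cells, and 7.83 to 10.04 and 7.99 to 10.17 in male GPER KO against 6.82 to 9.22 and 6.54 to 9.38 in male intact cells. Among 22 regulators of sarcomere genes 1 was called, Tbx5, a T-box factor of the heart, which averaged 6.19 ± 0.06 in female GPER KO and 6.52 ± 0.09 in female intact cells (SD, n = 4 each, difference -0.33, adjusted p = 0.0382). Of the 22, 9 in females and 2 in males had an unadjusted p under 0.05, against 12.6% and 10.1% of all genes. Srf and Mef2c, which bind muscle promoters, differed in males by 0.18 (adjusted p = 0.476) and -0.31 (adjusted p = 0.438). In females Srf averaged 6.34 in GPER KO and 6.53 in intact cells, and Mef2c 6.63 in GPER KO and 6.41 in intact cells. Both directions were the reverse of those in males. Between intact males and females limma called Tbx5 (-0.34, male minus female, adjusted p = 0.0356) and, of the anchoring genes, Cap2, an actin regulator (-0.29, adjusted p = 0.048), against 0.579% of all genes. An unadjusted p under 0.05 was met there by 10 of the 22 regulators, 5 of the 37 anchoring and 5 of the 26 filament genes, against 17.5% of all genes.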

How the data were processed

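The arrays were Affymetrix GeneAtlas MG-430 PM strips, hybridized with RNA of isolated cardiomyocytes. The authors deposited a log2 value for each probe set, and the submitters' processing notes name RMA and Partek without versions. RMA as usually run corrects background, applies quantile normalization and summarizes probes. Depth does not apply to arrays, and the 4 per group limit the precision. Of 45141 probe sets, 28898 carry 1 symbol, 551 carry several and 15692 none in the platform annotation, with symbols updated through RefSeq genes of GRCm38.p6 (28689 matched by Entrez identifier).

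The 39 members and all lists were chosen with earlier results of these data known. Genes were tested with limma 3.58.1 in R 4.3.3 on 4 group means over 16 arrays with no filter, adjusted over 17097 genes, or over 28898 probe sets where each was tested on its own. Contrasts were genotype (GPER KO minus intact) within females and within males, their average, the male minus female difference of these, and male minus female in intact mice. Isoform differences within an array were compared by exact permutation (70 assignments per sex, 4900 within both sexes) with SciPy 1.17.1 and pandas 2.3.3. Both tests were tried on simulated data. Named genes are the called members, the 4 per direction with the smallest p in each sex, isoform pairs at the smallest exact p, and, of the other muscle gene and regulator lists, the called genes or else those with the smallest p. Cell type markers were not covered by this rule. Outside this rule Nexn, Ttn, Acta2, Flnc, the Myh7, Ldb3 and Pdlim5 probe sets named by number, Myl1, Myl4, Myl7, Srf and Mef2c were named after their values were seen. Alternatives were averaging the probe sets of a gene, testing them all, a filter at the 40 percentile on at least 4 arrays, quantile normalization again, median centring, array weights, 1 sex alone, a robust and trended variance prior, each array left out, and female intact 421 and 422 left out. Taking probe sets without an _s_at or _x_at ending first was added after seeing the data.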

Additional observations from a re-analysis of the deposited data

Results flagged for a closer look

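In 3 of 140 tests of the highest or lowest array of a group, an array lay far from the other 3 of its group by Dixon's test, and chance flags about 1 in 20 groups. Myoz2 was highest in female GPER KO 419, at 11.64, with the other 3 at 11.52 to 11.53. Smyd1 was lowest in male intact 430, at 9.04, with the other 3 at 9.16 to 9.18. Tnnt1 was highest in male GPER KO 431, at 5.88, with the other 3 at 5.54 to 5.56.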

How the results depend on the processing

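The Myh7 probe set 1448553_PM_at stayed called in both sexes under every alternative run for it. With 1 array left out, the adjusted exact permutation p of Acta1 minus Actc1 over both sexes ran from 0.0049 to 0.0343, where limma gave Acta1 itself an adjusted p of 0.052 with all arrays. No paired analysis was possible because every animal number is unique to 1 mouse, so no groups share numbers. Of the other alternatives, leave-one-out aside, 456 of 490 counted as unchanged. For a gene or isoform pair this means the same direction and side of the threshold, called or not. For a count of calls it means equal or within a set ratio, and for a median a shift under the pooled SD within groups.

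Counts of called members moved as follows. In females the count was 1 (Myh7) with the mean of probe sets, with the suffix rule and with every probe set. Over all genes, 48 were called in females in the main fit, 40 with the mean and 48 with the suffix rule, and 52 of all probe sets. In males the member count was 1 under the same 3 settings (Myh7) and 1 without female intact 421 and 422 (Cmya5, -0.43, adjusted p = 0.0356, limma). Over all genes, 106 were called in males in the main fit, 108 with the mean, 100 with the suffix rule and 134 without intact 421 and 422, and 129 of all probe sets. For the average the member count was 2 with the filter and with array weights (Acta1 and Des), 2 with the suffix rule (Myh7 and Des), 3 with every probe set and 3 without intact 421 and 422 (Acta1, Cmya5 and Des). Over all genes, the average had 233 calls in the main fit, 242 with the filter and 310 with array weights. It had 232 with the suffix rule and 208 without intact 421 and 422, and 301 of all probe sets. For intact males against females the member count was 0 without intact 421 and 422 (Myot 0.98, adjusted p = 0.0822), where 7 of all genes were called against 99 in the main fit. With 1 array left out the member counts were 0 to 0 in females, 0 to 1 in males (Cmya5), 0 to 2 for the average (Acta1 without female intact 422 or male intact 452, Mybpc3 without male GPER KO 444), 0 to 0 for the sex difference of the genotype effect and 0 to 2 for intact males against females. Calls over all genes then ran from 20 to 159 in females, 53 to 120 in males and 162 to 296 for the average. For intact males against females they ran from 13 to 375. The average with 1 sex alone could not be formed.

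The median member difference in females was 0.031 with the suffix rule and 0.039 without intact 421 and 422, and with 1 array left out -0.0006 to 0.027 in females, -0.0065 to 0.014 in males, 0.0099 to 0.029 on average, -0.029 to 0.0087 for the sex difference and 0.024 to 0.067 for intact males against females.

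Values near 0 changed sign. With the suffix rule Acta2 was 0.044 in females and -0.023 in males. With the mean of probe sets Synpo2l was -0.0095 in females, Tpm2 minus Tpm1 0.16 in females and -0.058 in males, and Tpm3 minus Tpm1 0.12 in females, -0.055 in males and 0.031 over both. Without intact 421 and 422 the female values were 0.047 for Acta2, -0.19 for Cmya5, 0.025 for Acta2 minus Actc1, 0.13 for Tpm2 minus Tpm1 and 0.097 for Tpm3 minus Tpm1, which was 0.051 over both. With quantile normalization again, the male values were -0.018 for Tnni1 minus Tnni3 and -0.0093 for Tpm3 minus Tpm1. With 1 array left out, female ranges were -0.080 to 0.098 for Cmya5, -0.033 to 0.20 for Myot, -0.13 to 0.012 for Tcap, -0.064 to 0.083 for Tpm2 minus Tpm1 and -0.22 to 0.028 for Tpm3 minus Tpm1 (-0.15 to 0.017 over both), and male ranges were -0.055 to 0.052 for Tnni1 minus Tnni3 and -0.19 to 0.14 for Tpm3 minus Tpm1. The causes were not tested. The brightest genes sit near the top of the scale and Tnni1 and 1450786_PM_x_at near the array median.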
